A study of Homo sapiens with 10 samples.

Results

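A set of 7 keratin genes was followed through a papillary thyroid carcinoma line before, during and after adaptation to a RET kinase inhibitor: KRT7, KRT8, KRT18, KRT19, KRT80, KRT81 and KRT86. They were taken by gene name and are 7 of the 58735 genes in the expression table. The line was TPC-1, which carries a CCDC6-RET fusion, and every group shares that background. RNA of 5 groups was sequenced, with 2 libraries each that the study calls biological replicates. The controls were parental cells given the solvent DMSO for 24 h, and the acutely treated cells were parental cells given 5 µM BLU667 (pralsetinib, a selective RET inhibitor) for 24 h. The 3 remaining groups were the colonies BR8, BR10 and BR16, grown from TPC-1 in 5 µM BLU667. Their time in the drug is given as over 50 days on the samples and as over 5 months in the study's design. Each colony is a single derived population, so its 2 libraries measure the spread within that colony and not between independent adaptations. The 3 colonies together are called the adapted colonies.

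Keratins build the intermediate filaments of epithelial cells, and a filament forms from pairs of 1 acidic type I and 1 basic type II chain. KRT8 (type II) and KRT18 (type I) are the standard pair of simple epithelia, including thyroid follicular cells. KRT7 (type II) and KRT19 (type I) accompany them in glandular and ductal epithelia, and KRT19 is widely used as an immunohistochemical marker of papillary thyroid carcinoma. KRT80 is a type II keratin found near desmosomes and in differentiating epithelia. KRT81 and KRT86 are type II hair keratins of the hair shaft cortex, in which inherited mutations cause the brittle-hair disorder monilethrix.

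Levels are given as FPKM (reads scaled by gene length and library depth), and differences as log2(FPKM + 1) with a standard error. The gene lengths used were 6881 bases for KRT8, 3218 for KRT18, 4350 for KRT80 and 1929 for KRT81. Their coding sequences are closer in length, at 1536, 1293, 1359 and 1518 bases. A ranking, ratio or share of different keratins in FPKM depends on the lengths used, while the fold change of a single gene between groups does not. A gene was tested if it reached 1 FPKM in at least 2 libraries, which 13927 genes and 6 of the 7 keratins did; KRT19 reached it in no library. A difference was called at an adjusted p below 0.05 in limma, adjusted by Benjamini-Hochberg over all tested genes. In bulk RNA, fewer cells that express a gene and less RNA per cell cannot be told apart.

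The libraries held 15243703 to 21904245 reads in genes. Replicates correlated across genes with r from 0.978 to 0.989. In DMSO the difference between replicates followed the GC content of the genes (Spearman 0.619 across genes), and replicate 1 exceeded replicate 2 for all 7 keratins. The differences between colonies followed GC as well, with Spearman -0.606 for BR8 against BR16 and -0.535 for BR10 against BR16. The keratins are richer in GC than 76.18 to 93.68% of tested genes, so values with the GC trend removed are given beside the calls they change. Of the 8 listed thyroid markers, PAX8 was present at 35.3 to 94.7, FOXE1 at 2.04 to 4.17 and HHEX at 1.14 to 4.90 FPKM. Thyroglobulin (TG) stayed at or below 0.230 and TSHR at or below 0.0115 FPKM. The thyroid markers summed to 43.3 to 60.9 FPKM in DMSO, 39.2 to 43.6 in BLU667, 66.7 to 67.8 in BR8, 59.0 to 61.8 in BR10 and 100 to 101 in BR16. The epithelial adhesion genes EPCAM and CDH1 were at or below 0.196 and 0.1004 FPKM. Of the same list of 9 general epithelial markers, CLDN1 (22.1 to 139 FPKM) and TJP1 (20.1 to 78.1 FPKM) were abundant. The list summed to 67.0 to 80.1 FPKM in DMSO, 90.3 to 121 in BLU667, 162 to 166 in BR8, 78.9 to 80.2 in BR10 and 141 to 148 in BR16. The defining leukocyte marker PTPRC did not exceed 0.0207 FPKM, and no immune, endothelial or C cell marker listed was abundant enough to be tested. The 8 listed fibroblast markers summed to 28.0 to 29.5 FPKM in DMSO, 24.7 to 28.1 in BLU667, 7.16 to 9.61 in BR8, 1.96 to 2.38 in BR10 and 3.34 to 3.88 in BR16. The tested fibroblast markers took different courses. In that order of groups, PDPN averaged 25.5, 11.0, 1.85, 1.35 and 0 FPKM, and PDGFRB 2.75, 13.6, 0.126, 0.260 and 1.40. LUM averaged 0, 0.3045, 5.52, 0.0837 and 0.0409 FPKM, and COL1A1 0.454, 1.39, 0.881, 0.456 and 2.14. The 8 squamous markers summed to 0.597 to 0.815, 0.0682 to 0.0804, 9.44 to 11.6, 1.93 to 4.01 and 10.6 to 12.6 FPKM in the same order, of which SFN was the tested member, and TP63 was at or below 0.0229. The part of these lists in the keratin differences was not tested.

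KRT81, a hair keratin, had the highest FPKM of the 7 in DMSO cells and was lower in every drug-exposed group. In reads not scaled by gene length, KRT8 exceeded KRT81 in DMSO (3397 and 2250 against 2955 and 1987). KRT80 was lower after 24 h of drug and higher than in DMSO in all colonies. KRT8 and KRT18 were both lower after 24 h. In the colonies KRT8 was above DMSO in BR16. The main fit did not call KRT8 against DMSO in BR8 or BR10, nor KRT18 in any colony. Some of these calls were gained under alternative settings, as given below. Of the 6 tested keratins, 5 fell after 24 h of BLU667 and none rose; over all tested genes 31.2% were called lower and 29.0% higher. Adapted colonies against DMSO gave 2 higher and 2 lower (22.9% and 26.3% of all tested genes), and adapted colonies against 24 h of BLU667 gave 4 higher and 1 lower (32.4% and 28.7%). The median log2 difference of the 6 was -1.13 after 24 h, 0.09 in the colonies against DMSO and 0.72 in the colonies against BLU667, where the medians of all tested genes were -0.01, -0.03 and 0.03. Both comparisons with DMSO share its libraries, and both that involve BLU667 share those. KRT86 passed the expression filter only through DMSO and KRT7 only through BR10 and BR16, so counts and medians over the 6 are descriptions.

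**Figure D1:**
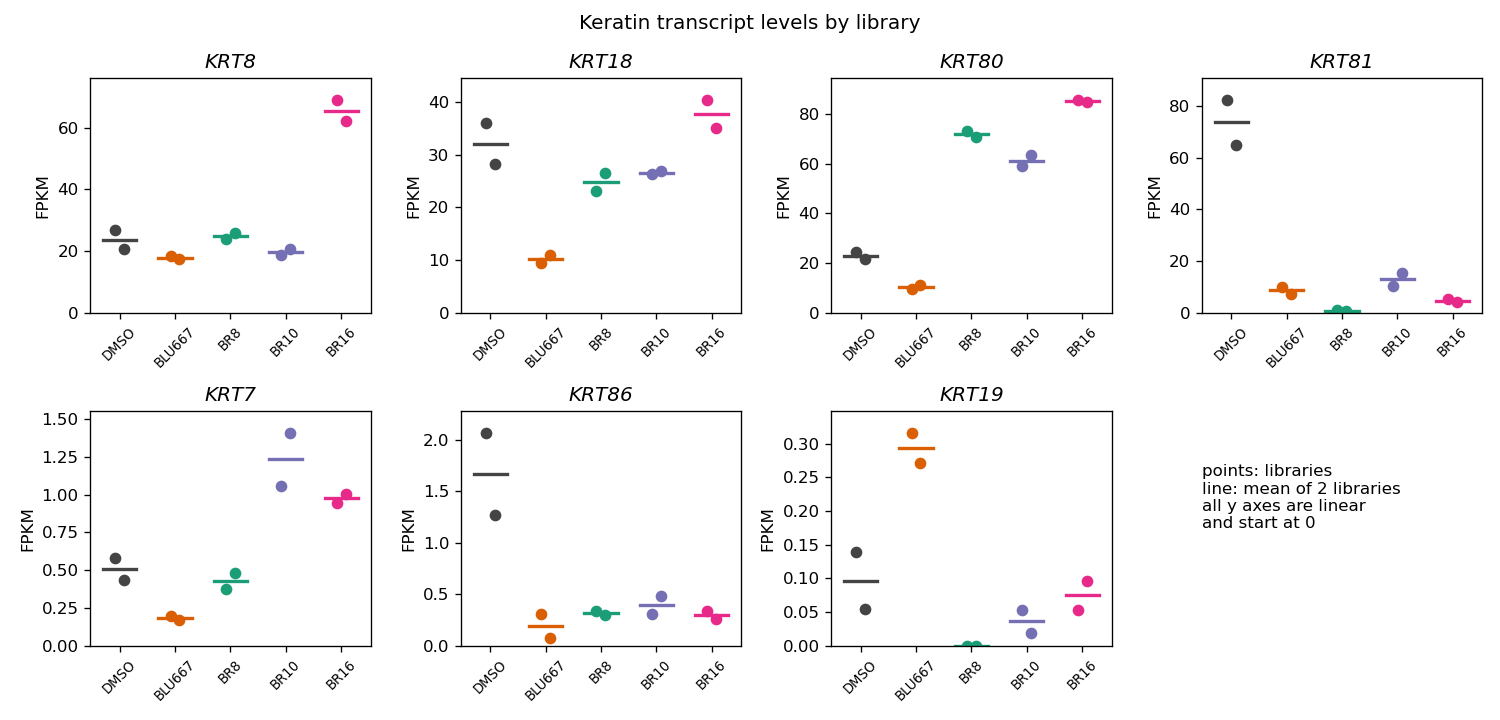
FPKM of the 7 keratins in each of the 10 libraries (points) with group means, by group. KRT81 drops from 65.1 to 82.6 FPKM in DMSO to under 1 in BR8, while KRT80 climbs from 21.4 to 24.4 FPKM in DMSO to 85.0 and 85.8 in BR16.

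KRT8 and KRT18, the pair that forms the basic filament of simple epithelia, lie side by side on chromosome 12 in opposite orientation. KRT8 (ENSG00000170421, GRCh38 chromosome 12, 52897187 to 52949954, minus strand) and KRT18 (ENSG00000111057, 52948871 to 52952901, plus strand) share 525 exonic bases, 7.63% of the exonic length of KRT8 and 16.31% of that of KRT18. The libraries did not keep strand, so reads from the shared stretch cannot be assigned to one gene. KRT8 read 26.6 and 20.7 FPKM in DMSO, 18.3 and 17.2 in BLU667, 23.8 and 25.9 in BR8, 18.6 and 20.7 in BR10, and 69.0 and 62.0 in BR16. BR16 stood apart above all other libraries, BR8 lay within the DMSO range, and both BLU667 libraries lay below every other one.

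After 24 h of BLU667, KRT8 fell from 23.7 ± 4.20 to 17.8 ± 0.744 FPKM (SD, n = 2 each), a log2 difference of -0.38 ± 0.12 (limma, adjusted p = 0.0275). That call was lost without DMSO replicate 1 (-0.21, limma adjusted p = 0.128), without either BLU667 library (adjusted p = 0.0633 and 0.119) and after quantile normalization (-0.19, adjusted p = 0.20). The adapted colonies were 1.55-fold higher than DMSO in mean FPKM (log2 difference 0.42 ± 0.10, limma adjusted p = 0.00928). This average rested on BR16, at 65.5 ± 4.97 FPKM (n = 2) and 2.77-fold above DMSO (1.44 ± 0.12, limma adjusted p = 4.73e-05). BR10 was not called against DMSO (-0.25 ± 0.12, limma adjusted p = 0.150). Its difference ran from -0.422 to -0.0728 with each library left out, and was -0.422 without DMSO replicate 2. Without BR16 the difference between colonies and DMSO was -0.09 (limma adjusted p = 0.539), and without DMSO replicate 2 it was 0.25 (adjusted p = 0.064). With the 3 colony means taken as replicates it was not called (adjusted p = 0.655). Against the acutely treated cells, the colonies were 2.06-fold higher (0.81 ± 0.10, limma adjusted p = 0.000214), a call that the colony means taken as replicates did not give (adjusted p = 0.287).

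KRT18 read 36.0 and 28.2 FPKM in DMSO, 9.36 and 11.0 in BLU667, 23.1 and 26.5 in BR8, 26.3 and 26.9 in BR10, and 40.5 and 35.2 in BR16. Its lowest libraries were the BLU667 ones, and BR16 overlapped DMSO. The 24 h drop was 3.15-fold, from 32.1 ± 5.53 to 10.2 ± 1.17 FPKM (n = 2 each; log2 difference -1.56 ± 0.14, limma adjusted p = 2.62e-05). In the adapted colonies KRT18 did not differ detectably from DMSO (-0.12 ± 0.11, limma adjusted p = 0.396), and it was 2.92-fold above BLU667 (1.44 ± 0.11, adjusted p = 1.39e-05). BR8 against DMSO was not called in the main fit (-0.35 ± 0.14, limma adjusted p = 0.0608). It was called lower with voom (-0.37, limma adjusted p = 0.0238) and at a minimum of 5 FPKM (-0.35, adjusted p = 0.0441). With each library left out, the differences from DMSO ran from -0.523 to -0.181 in BR8. They ran from -0.424 to -0.0811 in BR10 and from 0.0666 to 0.409 in BR16. The 24 h call for KRT18 held under every alternative tried, with log2 differences from -1.73 to -1.39 when each library was left out.

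Since KRT18 fell more than KRT8 after 24 h, the FPKM ratio of KRT8 to KRT18 was 0.740 and 0.734 in DMSO and 1.96 and 1.57 in BLU667. The colonies differed from each other in this ratio, at 1.03 and 0.977 in BR8, 0.706 and 0.770 in BR10, and 1.70 and 1.76 in BR16. BR10 thus lay near the DMSO ratio and BR16 near that of acutely treated cells. The ratio was not tested.

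KRT80 (ENSG00000167767, chromosome 12, 52168996 to 52192000, minus strand) shares no exonic base with another gene, and 0.364% of its 50-base stretches occur in another gene. It read 24.4 and 21.4 FPKM in DMSO, 9.33 and 10.9 in BLU667, 73.3 and 70.9 in BR8, 58.9 and 63.4 in BR10, and 85.8 and 85.0 in BR16. No pair of groups overlapped, and the order from low to high was BLU667, DMSO, BR10, BR8, BR16. Neither BR8 against BR10 nor BR8 against BR16 was called (limma, adjusted p = 0.124 and 0.0714). KRT80 fell 2.26-fold after 24 h, from 22.9 ± 2.10 to 10.1 ± 1.14 FPKM (n = 2 each; log2 difference -1.10 ± 0.098, limma adjusted p = 2.74e-05). In the adapted colonies it was 3.18-fold above DMSO (1.62 ± 0.080, limma adjusted p = 1.85e-06) and 7.19-fold above BLU667 (2.72 ± 0.080, adjusted p = 1.09e-07). Each colony passed the test against DMSO on its own, by 3.15-fold in BR8, 2.67-fold in BR10 and 3.73-fold in BR16 (limma adjusted p = 6.26e-06, 2.97e-05 and 3.36e-06). These KRT80 calls held under every alternative tried.

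**Figure D2:**
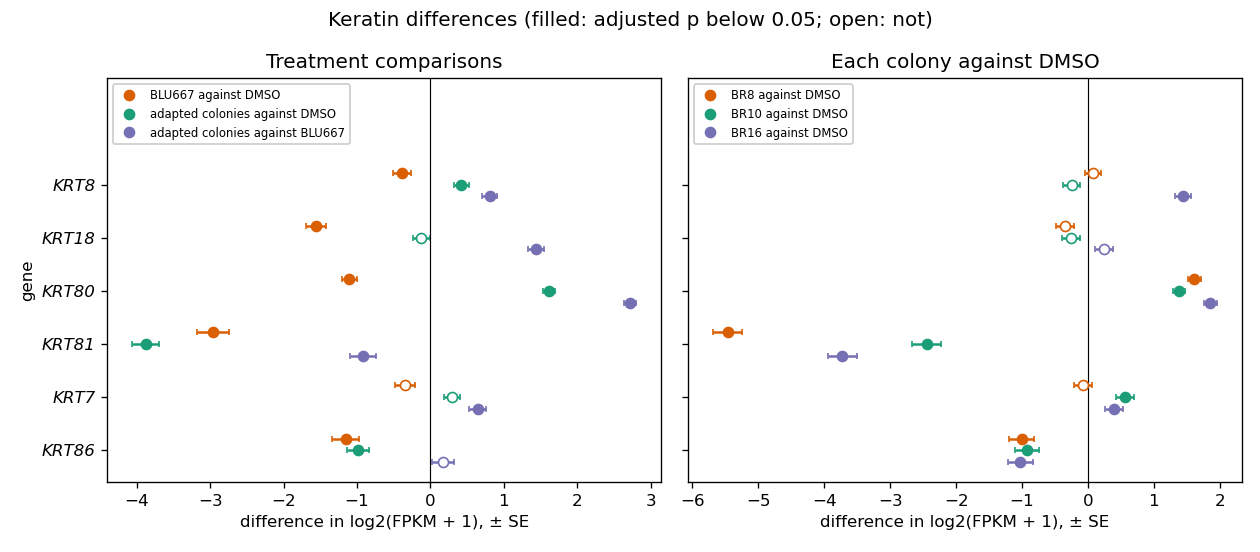
Log2(FPKM + 1) differences of the 6 tested keratins with standard errors, on the left for the 3 treatment comparisons and on the right for each colony against DMSO; filled points had an adjusted p below 0.05, open points did not. KRT80 changes sign between 24 h (-1.10) and the colonies against DMSO (1.62), while KRT81 lies left of 0 throughout and is lowest in BR8 (-5.46).

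KRT81 and KRT86 are close copies, so their reads have to be considered together. KRT81 (ENSG00000205426, chromosome 12, 52285913 to 52291534, minus strand) lies inside the span of KRT86 (ENSG00000170442, 52249300 to 52309163, plus strand) with no shared exonic base. Their coding sequences (1518 and 1461 bases) matched at 1364 of 1522 aligned positions, or 89.6%, against 45.2% for KRT8 and KRT18. Of the distinct 50-base stretches in KRT81, 37.6% also occur in KRT86, and 30.8% of those in KRT86 occur in KRT81. A read inside such a stretch fits both genes. The longest identical run is 605 bases and starts at coding base 61 of both; its first 90 bases are shown as an example of sequence that cannot tell the genes apart.
KRT81 and KRT86, coding bases 61 to 150: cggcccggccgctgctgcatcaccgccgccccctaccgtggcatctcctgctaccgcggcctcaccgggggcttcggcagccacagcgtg
The coding bases 1237 to 1326 differ most, at 19 of 90 positions, and are shown as sequence that can separate them, with differing bases in capitals. All sequences run 5′ to 3′ on the coding strand and come from GENCODE 29 transcripts on GRCh38.
KRT81: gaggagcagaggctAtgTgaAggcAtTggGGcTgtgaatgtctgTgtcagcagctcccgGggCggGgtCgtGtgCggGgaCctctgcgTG
KRT86: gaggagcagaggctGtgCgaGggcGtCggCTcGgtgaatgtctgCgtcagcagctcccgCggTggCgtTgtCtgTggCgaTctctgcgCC

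KRT81 read 82.6 and 65.1 FPKM in DMSO, 9.93 and 7.37 in BLU667, 0.826 and 0.554 in BR8, 10.4 and 15.3 in BR10, and 5.39 and 3.91 in BR16. No groups overlapped, and the order from high to low was DMSO, BR10, BLU667, BR16, BR8. In reads, DMSO had 2955 and 1987 on KRT81 and BR8 had 28 and 18. KRT81 fell 8.54-fold after 24 h, from 73.9 ± 12.4 to 8.65 ± 1.81 FPKM (n = 2 each; log2 difference -2.96 ± 0.22, limma adjusted p = 1.10e-05). The adapted colonies stood 12.2-fold below DMSO (-3.88 ± 0.18, limma adjusted p = 1.36e-06). Against DMSO, KRT81 was 107-fold lower in BR8 (-5.46 ± 0.22, limma adjusted p = 8.37e-07), 5.74-fold lower in BR10 (adjusted p = 0.000103) and 15.9-fold lower in BR16 (adjusted p = 6.08e-06). All of these calls against DMSO held under every alternative tried. Against 24 h of BLU667 the colonies averaged -0.92 ± 0.18 (limma adjusted p = 0.00243), an average that rested on BR8: without it the difference was -0.13 (adjusted p = 0.59). With the 3 colony means taken as replicates, that call was lost too (adjusted p = 0.453).

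KRT86 read 2.07 and 1.27 FPKM in DMSO, 0.309 and 0.0721 in BLU667, 0.333 and 0.298 in BR8, 0.310 and 0.479 in BR10, and 0.334 and 0.259 in BR16. Only the DMSO libraries passed 1 FPKM, and the drug-exposed groups overlapped each other. Its counts were 92 and 48 reads in DMSO and 3 to 26 in each other library. KRT86 passed the expression filter only through DMSO, so a lower level elsewhere was bound to appear and its call adds no independent support. The log2 difference was -1.16 ± 0.19 after 24 h (limma adjusted p = 0.000854) and -0.98 ± 0.15 in the adapted colonies (adjusted p = 0.00101), and the colonies did not differ detectably from BLU667 (0.17 ± 0.15, adjusted p = 0.357). Adding 1 to values this low shrinks the difference: with 0.1 added, the 24 h difference was -2.70 (limma adjusted p = 0.00189).

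KRT86 stood at 2.51 and 1.95% of the KRT81 level in DMSO, 3.11 and 0.979% in BLU667, 2.98 and 3.12% in BR10, and 6.20 and 6.61% in BR16. In BR8, where KRT81 was lowest, it stood at 40.3 and 53.7%. By these values KRT86 did not fall in proportion to KRT81 in BR8, but they rest on few reads. The 2 BR8 libraries had 14 and 12 reads on KRT86 and 28 and 18 on KRT81. KRT86 also shares 206 exonic bases, 8.61% of its exonic length, with genes other than KRT81. Reads from those bases cannot be assigned to one gene. How the counting treated reads that fit both genes was not tested.

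**Figure D3:**
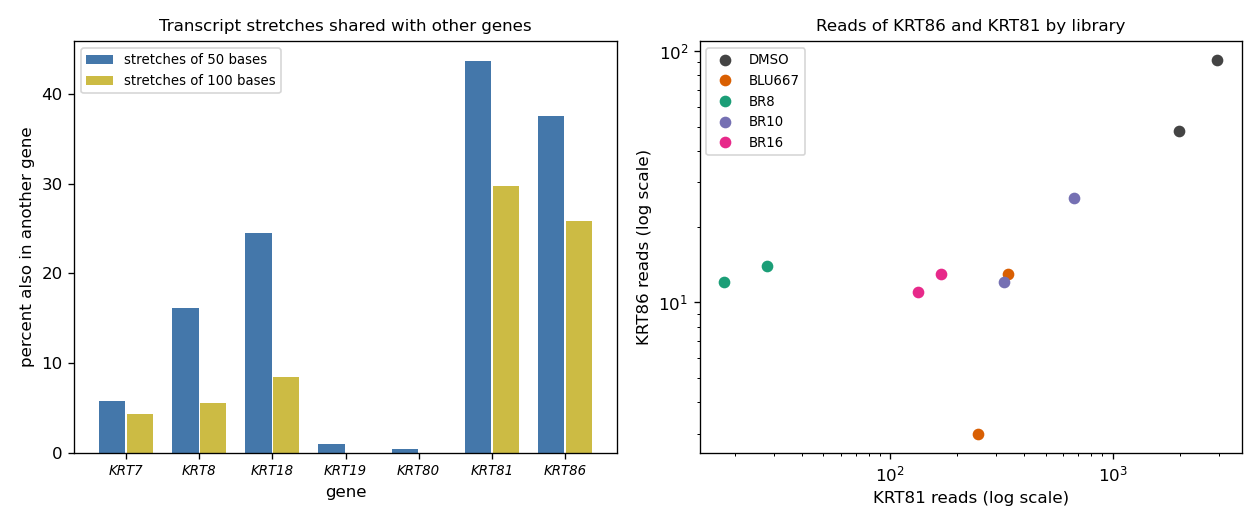
Left, bars of the percentage of distinct transcript stretches of 50 and 100 bases that also occur in another gene, for each keratin; KRT81 (43.7 and 29.7%) and KRT86 (37.5 and 25.8%) have the highest shares. Right, reads of KRT86 against reads of KRT81 in each library, both axes logarithmic; the 2 BR8 libraries have 18 and 28 KRT81 reads but 12 and 14 KRT86 reads.

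KRT7 (ENSG00000135480, chromosome 12, 52232520 to 52252186, plus strand) was near the lower limit of the test and passed the expression filter only through BR10 and BR16. It shares 282 exonic bases with its antisense gene KRT7-AS, whose reads cannot be separated without strand. KRT7 read 0.580 and 0.433 FPKM in DMSO, 0.194 and 0.169 in BLU667, 0.375 and 0.479 in BR8, 1.06 and 1.41 in BR10, and 0.948 and 1.01 in BR16. BLU667 was lowest, BR8 overlapped DMSO, and BR10 lay above BR16. After 24 h, 12 and 14 reads stood against 44 and 28 in DMSO, and the log2 difference of -0.35 ± 0.14 was not called (limma adjusted p = 0.057). With 0.1 added in place of 1 it was -1.10 (limma adjusted p = 0.013), and with voom on the recovered reads -1.45 (adjusted p = 0.00978).

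In the adapted colonies KRT7 differed from DMSO by 0.29 ± 0.11 (limma, adjusted p = 0.0599, not called), and it was 4.84-fold above BLU667 (0.64 ± 0.11, adjusted p = 0.00132; adjusted p = 0.117 with the colony means as replicates). BR10 was 2.44-fold above DMSO (0.57 ± 0.14, limma adjusted p = 0.0123), a call lost without BR10 replicate 2 (adjusted p = 0.0814). BR16 was 1.93-fold above DMSO (0.39, limma adjusted p = 0.0468), and leaving out either BR16 library or DMSO replicate 2 ended that call (adjusted p from 0.131 to 0.172). With the GC trend removed, KRT7 was 0.51 above DMSO in the adapted colonies (limma adjusted p = 0.00587), 0.40 in BR8 (adjusted p = 0.0401) and 0.15 in BR16 (adjusted p = 0.427). The GC trend was estimated over all genes and is subtracted in full from KRT7, whose differences the added 1 has already shrunk.

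KRT19 (ENSG00000171345, chromosome 17, 41523617 to 41528308, minus strand) is the only member outside the chromosome 12 cluster. It read 0.139 and 0.0541 FPKM in DMSO, 0.316 and 0.271 in BLU667, 0 in both BR8 libraries, 0.0530 and 0.0189 in BR10, and 0.0527 and 0.0965 in BR16. These are 6 and 2 reads in DMSO, 13 and 11 in BLU667, and at most 4 in each colony library; a count of 0, as in BR8, allows up to 3 reads. At this depth KRT19 was close to undetected in all groups, its highest values were the BLU667 libraries, and no test was made.

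The summed FPKM of the 7 keratins was 172 and 137 in DMSO, 47.7 and 47.1 in BLU667, 122 and 125 in BR8, 116 and 128 in BR10, and 202 and 187 in BR16. BLU667 thus had the lowest sum and BR16 the highest. The keratin that dominated the sum differed between groups. KRT81 made up 47.9 and 47.5% of it in DMSO, 20.8 and 15.7% in BLU667, 0.678 and 0.445% in BR8, 9.02 and 12.0% in BR10, and 2.67 and 2.09% in BR16. KRT80 made up 14.1 and 15.6% in DMSO, 19.5 and 23.2% in BLU667, 60.2 and 56.9% in BR8, 51.0 and 49.4% in BR10, and 42.5 and 45.4% in BR16. By FPKM, KRT80 took in the colonies the leading place that KRT81 held in DMSO, whereas in BLU667 KRT8 led with 38.3 and 36.6%. In reads not scaled by gene length, KRT8 exceeded KRT81 in DMSO (3397 and 2250 against 2955 and 1987). It also exceeded KRT80 in BR16 (7714 and 7569 against 6060 and 6564).

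KRT18, in practice the single type I member, kept a share of 18.8 to 23.4% in all 10 libraries. The summed type II level was 3.17 to 4.32 times the summed type I level. The ratio was 3.77 and 3.86 in DMSO, 3.93 and 3.17 in BLU667, 4.26 and 3.71 in BR8, 3.39 and 3.77 in BR10, and 3.98 and 4.32 in BR16, so the groups overlapped. Over all protein-coding keratins the ratio was lower, at 2.80 and 2.73 in DMSO, 2.29 and 1.84 in BLU667, 2.55 and 2.48 in BR8, 2.28 and 2.66 in BR10, and 3.13 and 3.34 in BR16. There the groups separated in part, with BR16 above DMSO and DMSO above all other libraries. These sums and shares are descriptions and were not tested.

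**Figure D4:**
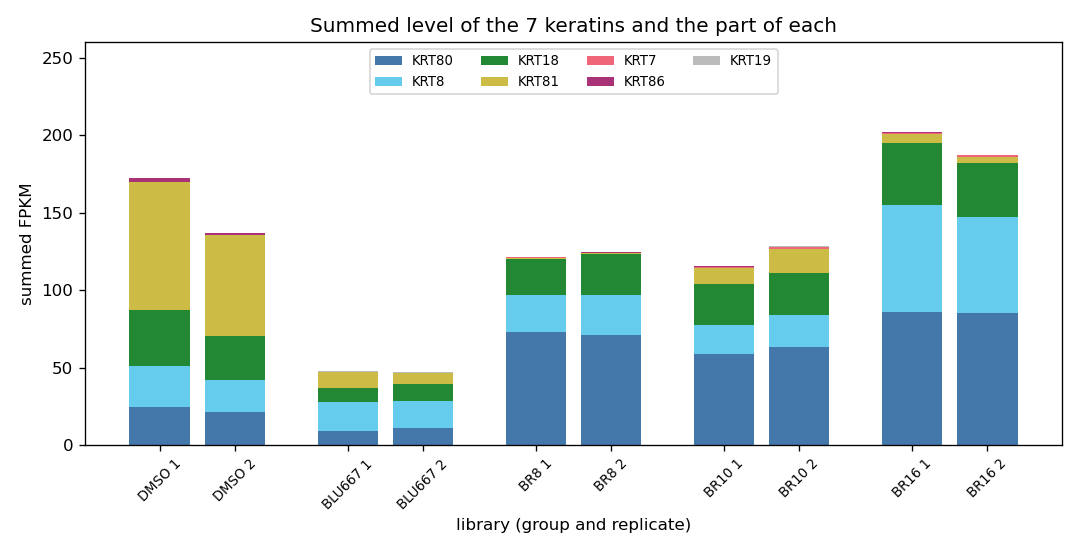
Stacked bars of the FPKM of the 7 keratins in each of the 10 libraries. KRT81 is the tallest segment in DMSO (47.9 and 47.5% of the sum), KRT8 in BLU667 and KRT80 in the colonies (42.5 to 60.2%).

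The colonies also differed among themselves. A moderated F test over the 3 colonies called 5 of the 6 keratins, all but KRT86 (limma adjusted p = 0.864), where 58.1% of all tested genes were called. The extremes of the 3 colony means were 3.02 apart on the log2 scale for KRT81 (limma F test, adjusted p = 0.000121) and 1.69 for KRT8 (adjusted p = 0.000104). For KRT7 they were 0.64 apart (adjusted p = 0.011), for KRT18 0.59 (adjusted p = 0.0133) and for KRT80 0.48 (adjusted p = 0.0104). KRT7 passed the expression filter only through BR10 and BR16, which favoured a difference from BR8, so its call adds no support. With the GC trend removed, KRT18 was no longer called (limma F test, adjusted p = 0.0842) and KRT86 was (adjusted p = 0.00964). KRT86 averaged 0.315 FPKM in BR8, 0.394 in BR10 and 0.297 in BR16. The GC trend is subtracted in full from KRT86 too, whose differences the added 1 has shrunk, so its call adds no support. Leaving out BR10 replicate 1 or either BR16 library ended the KRT80 call (adjusted p from 0.0552 to 0.0567), leaving out BR16 replicate 1 ended the KRT18 call (0.108), and leaving out BR8 replicate 1 ended the KRT7 call (0.0615).

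Each colony had its own keratin profile. BR8 against DMSO gave 1 keratin higher and 2 lower, where 24.0% and 27.3% of all tested genes were called. BR10 against DMSO gave 2 higher and 2 lower (19.2% and 21.5%), and BR16 against DMSO gave 3 higher and 2 lower (21.9% and 23.6%). KRT80 higher and KRT81 lower were common to the 3 colonies. KRT86 was lower in all 3 as well, which its passing the filter only through DMSO had fixed. KRT8 was called higher in BR16 only, although with the GC trend removed BR8 was called as well (limma, 0.24, adjusted p = 0.0427), and KRT7 was called higher in BR10 and BR16, through which alone it passed the filter.

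Between colonies, BR8 against BR10 gave no keratin higher and 2 lower, where 11.3% and 11.5% of all tested genes were called. KRT81 was 18.7-fold lower in BR8 (limma, -3.02, adjusted p = 7.8e-05) and KRT7 was lower by 0.64 on the log2 scale (adjusted p = 0.0116), a call lost without BR8 replicate 1 or BR10 replicate 2 (adjusted p = 0.0684 and 0.0879). With the GC trend removed, KRT8 (limma, 0.39, adjusted p = 0.0107) and KRT80 (0.30, adjusted p = 0.0137) were called higher in BR8 as well, which gives 2 higher and 2 lower, and KRT8 was also called with voom (0.34, adjusted p = 0.0468). BR8 against BR16 gave none higher and 4 lower (24.1% and 24.5%). KRT8 was 2.64-fold lower in BR8 (limma, -1.36, adjusted p = 0.000266) and KRT81 was 6.75-fold lower (-1.73, adjusted p = 0.000809). KRT18 (-0.59, limma adjusted p = 0.00895) and KRT7 (-0.47, adjusted p = 0.023) were lower by smaller amounts. The KRT18 call ended with the GC trend removed (-0.30, adjusted p = 0.0642) and without BR8 replicate 1 or BR16 replicate 1, and KRT7 turned to 0.26 (adjusted p = 0.19) and lost its call when any 1 of the 4 libraries was left out. With the GC trend removed, KRT86 was called higher in BR8 (limma, 0.65, adjusted p = 0.0115). Before that step its difference was 0.02 (limma adjusted p = 0.939), at means of 0.315 FPKM in BR8 and 0.297 in BR16. The full subtraction of the trend at this level means that the call adds no support.

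BR10 against BR16 gave 1 keratin higher and 3 lower (21.1% and 22.0% of all tested genes). KRT81 was 2.77-fold higher in BR10 (limma, 1.28, adjusted p = 0.00287), and KRT8 was 3.34-fold lower (-1.69, adjusted p = 9.44e-05). KRT18 (-0.49, limma adjusted p = 0.0211) and KRT80 (-0.48, adjusted p = 0.00595) were lower as well, but with the GC trend removed neither was called (-0.26, adjusted p = 0.0972, and -0.19, adjusted p = 0.0676). The same setting called KRT7 (limma, 0.84, adjusted p = 0.00293) and KRT86 (0.67, adjusted p = 0.0099) higher in BR10. Before it the differences were 0.17 for KRT7 and 0.10 for KRT86. Both genes are low, and the trend is subtracted from them in full, so these calls add no support. The KRT80 call also ended without BR10 replicate 1 (adjusted p = 0.0505), and the KRT18 call without either BR10 library or BR16 replicate 1. The differences in KRT8 and KRT81 that were called between colonies kept their calls with the GC trend removed and with each library left out.

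The table holds 55 protein-coding keratins, of which 22 had no read in any library and 44 stayed below 1 FPKM in all. The 7 members held 83.3 to 93.2% of the keratin FPKM of each library. Among the other 48 keratins, 4 were tested: 1 was lower and none higher after 24 h (31.2% and 29.0% of all tested genes), 2 were higher and 1 lower in the colonies against DMSO (22.9% and 26.3%), and all 4 were higher in the colonies against BLU667 (32.4%). KRT34 and KRT78 were the 2 higher than DMSO. For both, the filter had fixed the direction against DMSO and against BLU667, as they reached 1 FPKM only in colonies. KRT15, a type I keratin of basal epithelial cells, read 4.56 and 3.18 FPKM in DMSO, 0.611 and 0.562 in BLU667, 0.491 and 0.647 in BR8, 2.79 and 2.47 in BR10, and 0.645 and 0.718 in BR16. As with KRT81, DMSO was highest and BR10 was the highest of the colonies. KRT15 fell after 24 h (limma, -1.60 ± 0.15, adjusted p = 3.26e-05) and was lower than DMSO in the colonies (-1.19 ± 0.12, adjusted p = 9.67e-05).

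KRT34, a type I hair keratin, read 0.0308 and 0.0722 FPKM in DMSO, 0 and 0.0657 in BLU667, 1.59 and 0.915 in BR8, 1.55 and 1.03 in BR10, and 0.492 and 0.644 in BR16. KRT78, a type II keratin, read 0.0165 and 0.0194 FPKM in DMSO, 0 and 0.0530 in BLU667, 0.506 and 0.364 in BR8, 0.361 and 0.108 in BR10, and 1.27 and 1.07 in BR16. Both were at 3 reads or fewer in every DMSO and BLU667 library. They were higher than DMSO in the adapted colonies by 0.92 ± 0.15 and 0.62 ± 0.13 (limma adjusted p = 0.00145 and 0.00543). The filter had fixed that direction, so these calls add no support. KRT10, the type I keratin of suprabasal epidermis, was not called against DMSO in either comparison and was higher in the colonies than in BLU667 (0.38, limma adjusted p = 0.00644).

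Processed pseudogenes can draw reads from their parent genes, and 122 rows were pseudogenes of the 7 members. Their summed level was 3.09 to 7.13 FPKM per library, and only KRT8P12 was tested. Like KRT8 it was lower after 24 h (limma, -0.58 ± 0.16, adjusted p = 0.0137) and higher in the colonies than in BLU667 (0.75, adjusted p = 0.00129). Unlike KRT8, it was called higher than DMSO in BR8 (limma, 0.47, adjusted p = 0.0405) and not in BR16 (0.16, adjusted p = 0.457).

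Keratin filaments end at desmosomes, which join neighbouring cells, and at hemidesmosomes, which hold a cell to its basement membrane. Of 25 genes of these junctions and their linkers, 14 were tested. After 24 h, 2 rose, 7 fell and 5 were not called (median log2 difference -0.21), where 29.0% of all tested genes rose and 31.2% fell. In the colonies 7 were higher than DMSO, 2 lower and 5 not called (median 0.22), where 22.9% of all tested genes were higher and 26.3% lower. Against BLU667 8 were higher, none lower and 6 not called (median 0.59), where the shares were 32.4% and 28.7%. The medians of all tested genes were -0.01, -0.03 and 0.03 in these 3 comparisons. Desmoplakin (DSP), the main anchor of keratin in desmosomes, did not exceed 0.0588 FPKM in any library.

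Of the hemidesmosome genes, ITGA6 and COL17A1 were lower than DMSO, but others were not lower throughout. DST was higher after 24 h (limma, 0.37 ± 0.082, adjusted p = 0.00464) and in the colonies (0.33 ± 0.067, adjusted p = 0.00385). CD151 was not called after 24 h and was higher in the colonies (0.30 ± 0.10, limma adjusted p = 0.0448). PLEC was lower after 24 h (-0.78 ± 0.20, limma adjusted p = 0.00957) and was not called in the colonies (adjusted p = 0.0718). ITGA6, the alpha 6 integrin chain, read 18.7 and 20.9 FPKM in DMSO, 4.64 and 4.11 in BLU667, 11.5 and 12.1 in BR8, 7.90 and 8.46 in BR10, and 6.22 and 5.98 in BR16. It was lower after 24 h (limma, -1.95 ± 0.088, adjusted p = 7.02e-07) and in the colonies (-1.14 ± 0.072, adjusted p = 7.17e-06). COL17A1, the transmembrane collagen XVII of hemidesmosomes, was also lower than DMSO after 24 h (limma, -1.57 ± 0.11, adjusted p = 8.53e-06) and in the colonies (-1.43 ± 0.091, adjusted p = 7.62e-06). It read 3.48 and 3.15 FPKM in DMSO and 0.298 to 0.989 in the other libraries, so it passed the expression filter only through DMSO and a lower level elsewhere was bound to appear.

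The desmosomal cadherins DSC2 (desmocollin 2) and DSG2 (desmoglein 2) were higher than DMSO in the colonies. DSC2 read 0.199 and 0.0962 FPKM in DMSO, 0.355 and 0.373 in BLU667, 3.67 and 3.82 in BR8, 1.79 and 1.55 in BR10, and 1.89 and 1.87 in BR16, which separates the colonies from the parental cells. It passed the expression filter only through the colonies, so a higher level there was bound to appear. Its log2 difference from DMSO was 1.53 ± 0.086 (limma adjusted p = 3.84e-06), and that of DSG2 was 0.84 ± 0.086 (adjusted p = 0.000112). DSG2 averaged 50.5 FPKM in DMSO, 54.9 in BLU667, 130 in BR8, 70.7 in BR10 and 80.7 in BR16. PKP3, a desmosomal plaque protein, fell after 24 h (limma, -0.92 ± 0.14, adjusted p = 0.000752) and was higher in the colonies than in BLU667 (1.06 ± 0.12, adjusted p = 0.000103). TCHP (trichoplein, a keratin-binding protein) followed the same course, with -0.87 ± 0.15 after 24 h (limma adjusted p = 0.00142) and 0.84 ± 0.13 in the colonies against BLU667 (adjusted p = 0.000542).

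**Figure D5:**
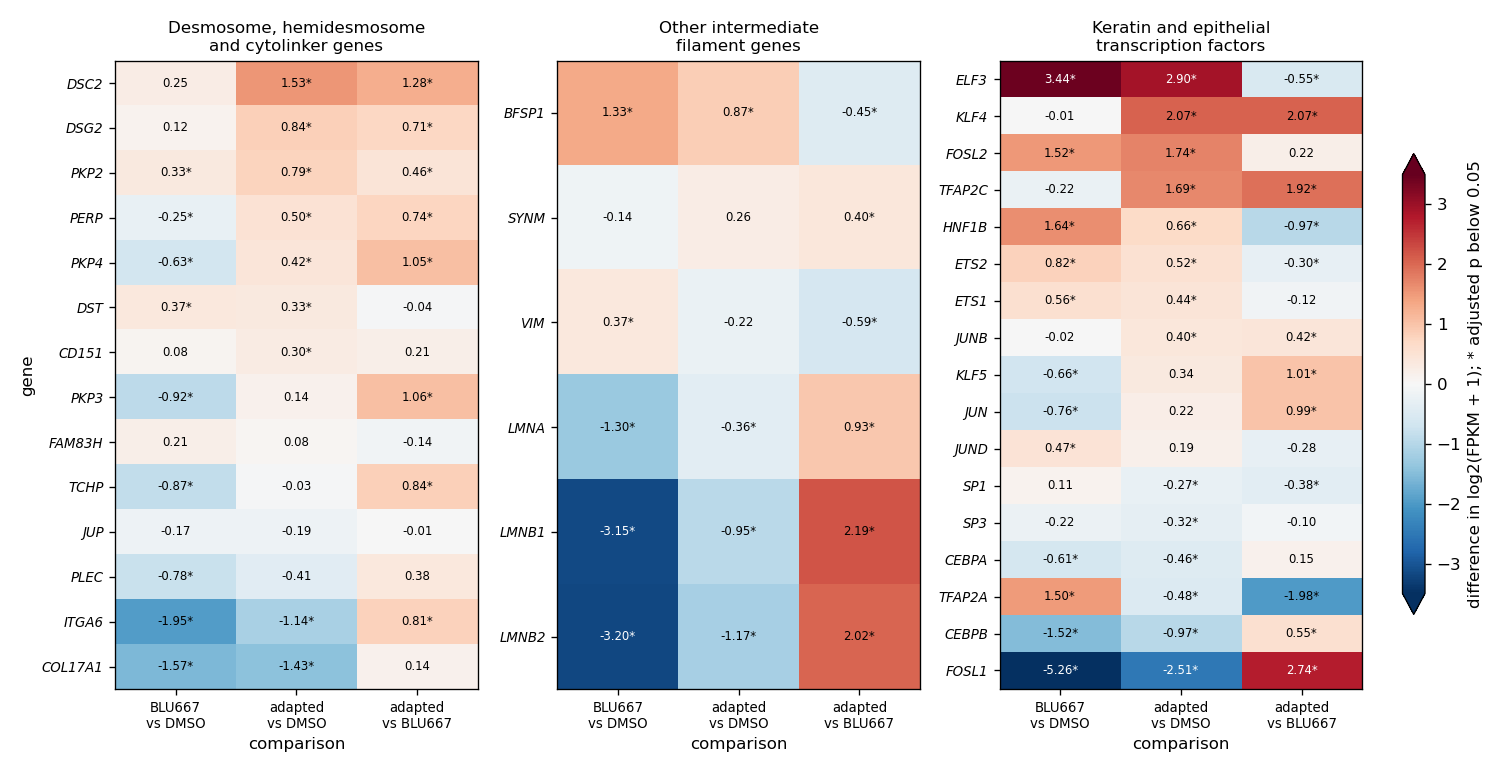
Differences in log2(FPKM + 1) as coloured cells (red higher, blue lower in the group named first) for the tested genes of 3 lists, in columns for BLU667 against DMSO, adapted colonies against DMSO and adapted colonies against BLU667; a star marks an adjusted p below 0.05. FOSL1 has the lowest values against DMSO (-5.26 and -2.51) and ELF3 the highest (3.44 and 2.90).

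Other intermediate filaments were examined for comparison. Of 15 such genes 6 were tested: 2 rose, 3 fell and 1 was not called after 24 h (median -0.72), beside 29.0% and 31.2% of all tested genes. In the colonies against DMSO 1 was higher, 3 were lower and 2 not called (median -0.29), beside 22.9% and 26.3%, and against BLU667 4 were higher and 2 lower (median 0.67), beside 32.4% and 28.7%. The nuclear lamins LMNB1 and LMNB2 fell after 24 h by 3.15 and 3.20 on the log2 scale (limma adjusted p = 5.13e-08 and 1.18e-06) and remained lower than DMSO in the colonies (-0.95 and -1.17, adjusted p = 9.17e-06 and 0.000161). LMNA, the A-type lamin, fell by 1.30 after 24 h (limma adjusted p = 9.89e-05). BFSP1 and vimentin (VIM, the filament of mesenchymal cells) were the 2 that rose at 24 h. BFSP1 averaged 1.61 FPKM in DMSO and 5.56 in BLU667. The rise of VIM was smaller (limma, 0.37 ± 0.12, adjusted p = 0.0305), and VIM was lower in the colonies than in BLU667 (-0.59 ± 0.10, adjusted p = 0.00113).

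Of 26 transcription factors known to act on keratin or epithelial genes, 17 were tested. After 24 h 7 rose, 5 fell and 5 were not called (median -0.01), beside 29.0% and 31.2% of all tested genes. The colonies against DMSO gave 8 higher, 6 lower and 3 not called (median 0.34), beside 22.9% and 26.3%. Against BLU667 they gave 7 higher, 5 lower and 5 not called (median 0.15), beside 32.4% and 28.7%. FOSL1, an AP-1 subunit induced by MAP kinase signalling, read 221 and 170 FPKM in DMSO, 5.93 and 2.74 in BLU667, 18.0 and 16.4 in BR8, 37.0 and 44.6 in BR10, and 52.6 and 50.3 in BR16. It was lower than DMSO after 24 h (limma, -5.26 ± 0.26, adjusted p = 1.14e-06) and in the colonies (-2.51 ± 0.21, adjusted p = 3.44e-05), and the colonies lay between the other groups.

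ELF3, an epithelial ETS factor, averaged 1.04 FPKM in DMSO, 21.1 in BLU667, 16.6 in BR8, 8.11 in BR10 and 20.6 in BR16. It rose after 24 h (limma, 3.44 ± 0.11, adjusted p = 1.19e-07) and was higher than DMSO in the colonies (2.90 ± 0.086, adjusted p = 1.75e-07). KLF4, a factor of epithelial differentiation, read 1.77 and 1.64 FPKM in DMSO, 1.82 and 1.57 in BLU667, 10.1 and 9.28 in BR8, 6.31 and 7.06 in BR10, and 17.0 and 16.5 in BR16. As with the means of KRT80, KLF4 was highest in BR16, then BR8, then BR10, but it did not differ detectably between BLU667 and DMSO. For KRT80, BR8 against BR16 was not called (limma, adjusted p = 0.0714) and changed sign with the GC trend removed (0.113). Its difference between colonies and DMSO was 2.07 ± 0.072 (limma adjusted p = 3.41e-07). TFAP2C, an AP-2 factor, averaged 2.02 FPKM in DMSO, 1.61 in BLU667, 7.56 in BR8, 8.36 in BR10 and 10.7 in BR16, and was higher in the colonies than in BLU667 (limma, 1.92 ± 0.099, adjusted p = 1.60e-06). TFAP2A, its relative, was lower there (-1.98 ± 0.070, limma adjusted p = 2.57e-07).

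The genes whose levels ran most like each keratin were sought among 6752 tested protein-coding genes outside the family with a mean of at least 5 FPKM. Likeness was Pearson's r of log2(FPKM + 1) over the 10 libraries, which share their group structure, so high values are easily reached. SURF4 (0.991) and HNRNPAB (0.988) ran most like KRT18, and GADD45A (0.989) and FLII (0.986) most like KRT80. TRIB2 (0.978) and TNFRSF1A (0.975) came first for KRT81, and TMEM185B (0.973) and ARRDC1 (0.972) for KRT8. For KRT86 these were PHGDH (0.969) and FAM20C (0.967), and for KRT7 VCL (0.949) and ITGB5 (0.947).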

How the data were processed

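Protocols in the labels give TRI reagent and Direct-zol extraction, GlobinClear depletion and an NEB library kit that does not keep strand. The submitters' processing notes name CASAVA, STAR 2.5, HTSeq 0.6.1, DESeq2 (version given as 2) and GRCh38 (hg38); no annotation release is named there. The authors deposited FPKM per gene, and all gene coordinates equal GENCODE 29 models. Multiplied by gene length, 100% of the values came out as whole reads within 0.05. Here log2(FPKM + 1) was fitted with limma 3.58.1 (variance trend, R 4.3.3) in 1 model of 5 groups with 5 residual degrees of freedom. Genes at 1 FPKM or more in at least 2 libraries were tested, 2-sided. The adapted colonies were the mean of 3 colony means. P-values set a difference against the spread between libraries within groups, pooled over the 5 groups. For the adapted colonies they leave out the spread between the 3 colonies, except where the colony means were the replicates. The script was tested on simulated data. All 7 keratins are named, and beside them at most 4 called genes per list and comparison with the largest changes and the 2 most alike genes per keratin. Some genes are named outside this rule, among them DSP, VIM at 24 h, the hemidesmosome genes DST, CD151 and PLEC, and cell type markers. Members and lists were chosen with earlier results of these data known. Alternatives were pseudocounts of 0.1 and 0.25, other filters and scalings, a replicate block, a loess correction for GC (span 0.3), voom on the recovered reads, the colony means as replicates, and each library left out.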

Additional observations from a re-analysis of the deposited data

Results flagged for a closer look

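Of the 6 tested keratins, 5 differed between the 3 colonies, which had grown in the same drug at the same dose, in the moderated F test of limma. The range of the 3 colony means on the log2(FPKM + 1) scale was 3.02 for KRT81 (adjusted p = 0.000121), with BR10 highest and BR8 lowest. It was 1.69 for KRT8 (limma, adjusted p = 0.000104), with BR16 highest and BR10 lowest. For KRT7 the range was 0.643 (limma, adjusted p = 0.011), for KRT18 0.590 (adjusted p = 0.0133) and for KRT80 0.476 (adjusted p = 0.0104). KRT7 passed the expression filter only through BR10 and BR16, which favoured a difference from BR8. Over all tested genes 58.1% differed among the colonies by the same test, so that 5 of 6 keratins is not set apart by this count.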

How the results depend on the processing

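Of 1048 values of single keratins under alternative settings, 956 kept their direction and their side of the threshold, 31 gained a call, 50 lost one and 11 changed sign. With the GC trend removed, KRT7 turned to 0.405 in BR8 against DMSO and to 0.259 in BR8 against BR16, and KRT80 to 0.113 in BR8 against BR16; these values were the same with the replicate block added. Leaving out 1 library changed the sign of KRT18 in the adapted colonies against DMSO (0.049 without DMSO replicate 1; range -0.293 to 0.049), of KRT8 in BR8 against DMSO (-0.099 without DMSO replicate 2; range -0.099 to 0.251), and of KRT86 in BR8 against BR10 (0.00536 without BR10 replicate 2; range -0.169 to 0.00536) and against BR16 (-0.0211 without BR16 replicate 2; range -0.0211 to 0.0628). KRT8 in the adapted colonies against DMSO was -0.0859 without BR16, an alternative chosen after seeing the data. None of these values but KRT7 in BR8 against DMSO was called.

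The number of keratins called fell from 5 to 2 for the adapted colonies against BLU667 with the colony means as 3 replicates. It rose from 3 to 5 for BR8 against DMSO, and from 2 to 4 for BR8 against BR10 (4 with the replicate block too), with the GC trend removed. With a minimum of 5 FPKM, which left 4 members to test, it was 2 for BR10 against DMSO, 3 for BR16 against DMSO and 1 for BR8 against BR10. Leaving out 1 library at a time, it ranged from 4 to 5 for BLU667 against DMSO, 3 to 4 for the adapted colonies against DMSO, 5 for them against BLU667, 3 to 4 for BR8, 3 to 6 for BR10 and 4 to 6 for BR16 against DMSO, 1 to 2 for BR8 against BR10, 2 to 3 for BR8 against BR16, 2 to 4 for BR10 against BR16 and 3 to 5 for any difference among colonies. Except where stated, the cause was not tested.

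Replicate numbers did not pair the samples (correlations of deviations -0.163 to 0.109). The replicate block changed 1 of 60 values, KRT7 in BR16 against DMSO, which at 0.39 lost its call (limma, adjusted p = 0.0671). Depth limits KRT7, KRT19 and KRT86, with 1 FPKM or less in most libraries.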
